A study of Mus musculus with 4 samples.

Results

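The genes described here encode the machinery that takes a secreted protein into the endoplasmic reticulum (ER) and carries it on to the Golgi: the signal recognition particle (SRP) and its receptor, the translocon, signal peptidase, oligosaccharyltransferase, the COPII and COPI vesicle coats and the receptors that load and retrieve cargo. A list of 49 genes was given by function, and its members were found by gene symbol among probe sets that name 1 gene. Of the 49, 48 were found, out of 18193 genes named in this way on the array, and all 48 passed the filter on low signal. Sec61g was found only on a probe set that also names other genes, so it was not analysed here. Tmed2, which encodes a p24 family cargo receptor, passed only through a probe set at the edge of the filter (CD11b-positive signals 8.01 and 16.4, CD11b-negative signals 10.3 and 7.37), since its brighter probe sets name a second gene.

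Antibody chains enter the ER while they are being made. SRP binds the signal sequence on the ribosome and docks at its receptor, the Sec61 channel threads the chain through the membrane, signal peptidase cuts off the signal sequence, and oligosaccharyltransferase attaches glycans to asparagines. Finished proteins leave in COPII-coated vesicles, and COPI-coated vesicles bring escaped ER proteins and receptors back. Plasma cells are known for a greatly enlarged ER, built under the transcription factor XBP1, and make large amounts of this machinery.

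RNA came from IgA-positive cells of the small intestine of untreated female Balb/c mice aged 9 weeks, labelled WT in the titles, which the study divided by surface CD11b. Each of both fractions, CD11b-positive and CD11b-negative, has 2 arrays. The arrays were labelled with 2 kits: 1 array of each fraction used 1 µg of RNA and the One-Cycle kit, and 1 of each used 0.1 µg and the 3' IVT Express kit (replicates 1 and 2 below). The labels do not tie the arrays of a fraction to different animals or sorts. The p-values therefore cover the spread among these samples alone, and that spread may be technical. Signals below are quantile-normalized intensities on a linear scale, and every pair of values is given in the order One-Cycle kit, then 3' IVT Express kit. Where signals stand "against" others, those of the CD11b-positive arrays come first. A log2 difference is the CD11b-positive minus the CD11b-negative fraction, on log2 of the signal plus a pseudocount of 3, and the values within a kit each come from a single pair of arrays.

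The labels and cell identity were checked first. Itgam, the gene of CD11b, had signals of 189 and 109 against 28.3 and 15.8. All 10 plasma cell markers checked were measured, with a summed signal of 53586 to 54927 in CD11b-positive and 57388 to 58191 in CD11b-negative arrays. Within both kits 8 of the 10 were lower in the CD11b-positive fraction and 0 higher, against 30.5% and 31.6% of all genes. Sdc1 and Cd79a were called lower (log2 differences -0.61 and -0.63, adjusted p under 0.05 in limma with the labelling kit as a block). Several other lists differed between the fractions. The 19 epithelial markers found of 20 had sums of 3032 to 4360.4 against 7810.2 to 8028, and the 11 cycling genes found of 12 had 6139 to 8453 against 3159.7 to 4511. The 11 T cell, NK cell and ILC markers found of 12 summed to 1441 to 2789 against 2086 to 5576. The 9 granulocyte and mast cell markers summed to 189 to 293 against 256 to 377. The sums of both these lists overlap between the fractions, but the CD11b-positive sum was the lower within each kit. Prg2 made up most of the granulocyte and mast cell difference (28.7 and 33.2 against 86.2 and 89.96). Of the 6 tested on that list, 5 were lower and 1 higher, and with the block only Prg2 was called. The 7 stromal markers summed to 1642 to 2028 against 1100.0 to 1946, which overlap, and Vim made up most of this (1449 and 1810 against 942 and 1717). The 12 macrophage and dendritic cell markers summed to 2469 to 2636 against 3538 to 3834, but Cst3, also expressed in many other cells, made up most of this (1744 and 2123 against 3085 and 3439). The other 11 summed to 514 to 725 against 395 to 453. Of the 10 tested on the full list, Cst3 included, 7 were higher in the CD11b-positive fraction and 3 lower (median log2 difference 0.45). With the block Itgax was called higher (0.85) and Cst3 lower (-0.76). Csf1r and Adgre1 were at -0.11 each and were not called. The 3' to 5' signal ratio of the Actb control probe sets, a sign of RNA quality, was 1.43 and 1.61 against 1.90 and 1.84. That of the Gapdh control probe sets was nearly equal, at 0.682 and 0.710 against 0.685 and 0.704. No marker was at 0, but C1qa, Mrc1, Epx, S100a8 and S100a9 lay below the low-signal filter. The part of these other cells, of cycling or of RNA quality in the differences below was not tested, and in such bulk samples fewer cells of a type and less RNA per cell cannot be told apart.

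The whole list differed little between the fractions. Its median log2 difference was 0.11 over 48 members (quartiles -0.04 and 0.22, range -0.29 to 0.58), against 0.0027 over all 12645 genes tested, whose quartiles were -0.24 and 0.23. The largest difference was 1.49-fold, for Rpn1. Within the kits the median was 0.02 (One-Cycle) and 0.15 (3' IVT Express). Within both kits 23 members had a higher and 11 a lower CD11b-positive signal, against 31.6% and 30.5% of all genes. The signals of both fractions were fully separate for 11 higher and 2 lower members, where the share over all genes was 18.3% and 17.3%. A gap of at least 2-fold between the nearest arrays was found for 0 members, against 0.593% of all genes higher and 0.641% lower.

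With limma and no block, 0 members and 0 of all genes (0%) had an adjusted p under 0.05, and the members' adjusted p-values ran from 0.610 to 1.00. At an unadjusted p under 0.05 there were 3 higher members (Rpn1, Ssr2 and Rpn2) and 0 lower, against 3.14% and 3.52% of all genes. With the labelling kit as a block, 7 members were called higher and 1 lower (14.6% and 2.08% of 48), against 3.73% and 4.14% of all genes. The machinery is abundant, and bright genes were called more often: 43 members lay in the top 5% of probe sets by signal, where 9.15% of 1344 genes were called higher and 12.7% lower. The 8 called members were Rpn1, Rpn2, Ostc, Ssr2, Sec13, Surf4 and Srp9, all higher in the CD11b-positive fraction, and Srpr, which was lower.

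The blocked fit has 1 residual degree of freedom per gene and leans on a spread shared across genes of like signal: without that trend it called 0 genes and 0 members. The scaling of the arrays sets the split too, since on the signals as deposited, where the median of all genes is shifted by 0.42, the blocked fit called 38 members higher and 0 lower (3655 and 154 of all genes), and after centring on the array median 31 and 0 (1730 and 207). Scaling to a shared trimmed mean gave 7 and 0 members (406 and 420 of all genes), and cyclic loess gave 5 and 2 (358 and 466), with Srp9 and Ostc no longer called and Ssr4 called lower. Over 11 other settings of the blocked fit, Rpn1, Rpn2 and Ssr2 were each called in 9, Sec13 and Surf4 in 8, Ostc in 6, Srp9 in 4 and Srpr in 2. Rpn1, Rpn2, Ssr2 and Surf4 were not tested in 1 of the 11, called "without cross-hybridising probe sets" below. By probe set name it leaves out those that may cross-hybridise and also those that match several transcripts of a gene. The probe sets used for Rpn2, Ssr2, Surf4, Srp9 and Srpr are of the latter kind. The 11 include the deposited scale and the centring on the array median, in which most members were called. Below, a value after ± is the standard error (SE) of the fit without the block, and adjusted p-values come from limma with the block, whose own SE stands beside them for called members.

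**Figure D1:**
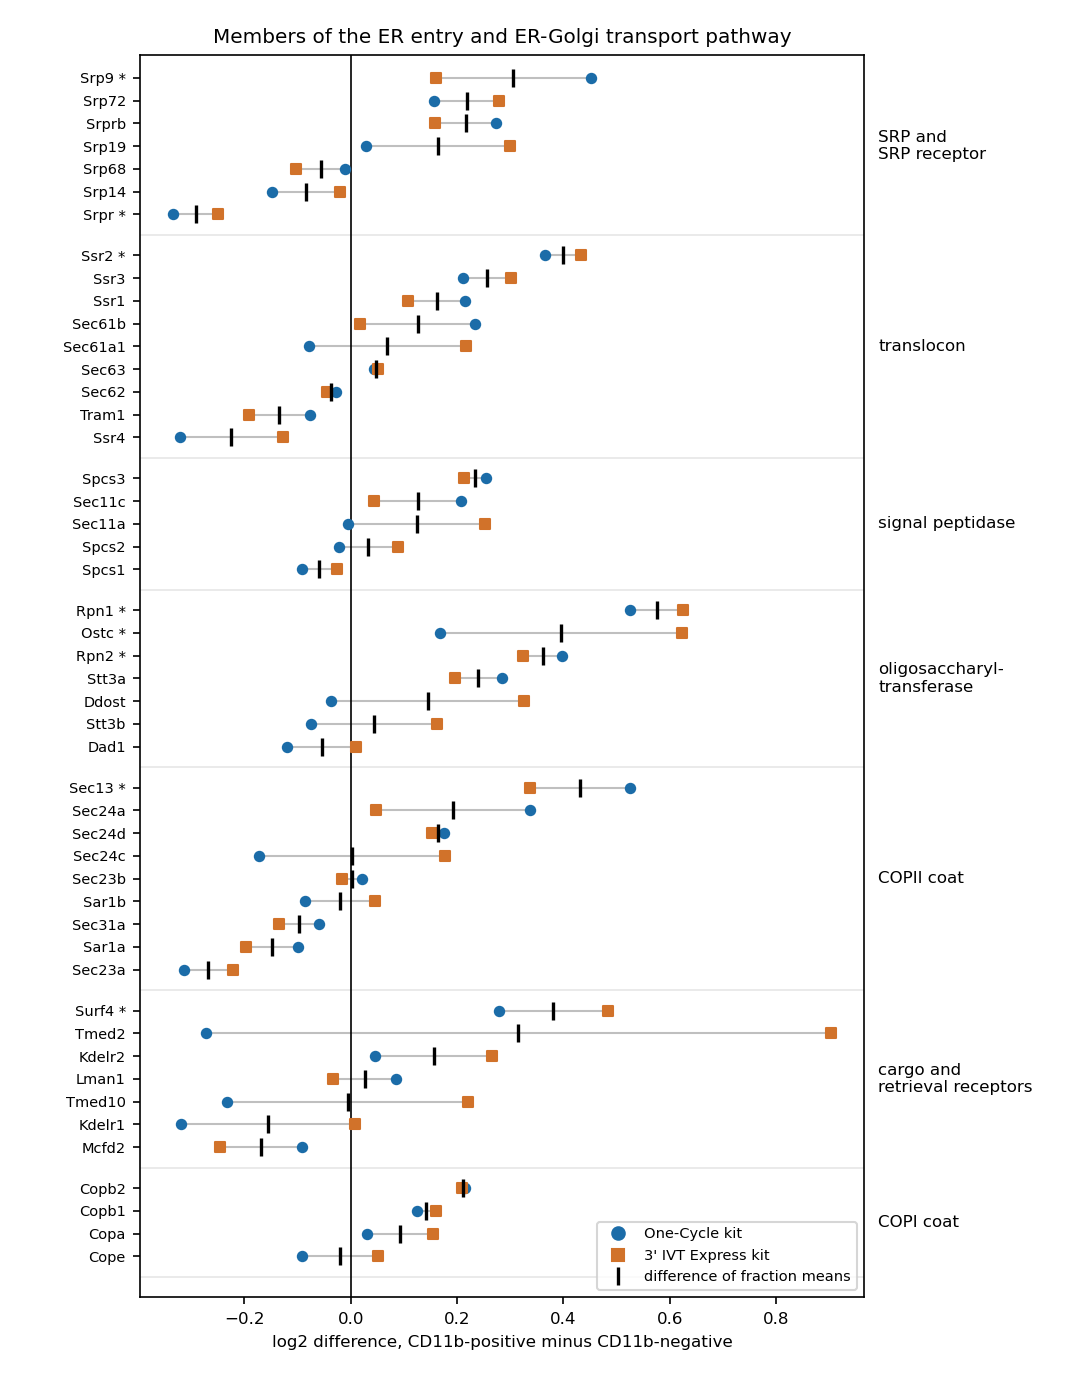
Log2 difference (x axis, CD11b-positive minus CD11b-negative) of each of the 48 members (y axis), ordered by step; circles are the One-Cycle kit pair of arrays, squares the 3' IVT Express kit pair, and bars the difference of the fraction means, with n = 2 arrays per fraction. Asterisks mark the 8 members with an adjusted p under 0.05 with the labelling kit as a block; Tmed2, the widest pair, has signals at the edge of the low-signal filter.

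Across the steps, the median log2 difference was 0.24 for oligosaccharyltransferase (7 members), 0.16 for SRP and its receptor (7), 0.12 for signal peptidase (5), 0.12 for the COPI coat (4), 0.07 for the translocon (9), 0.03 for the cargo and retrieval receptors (7) and 0.0020 for the COPII coat (9). Within the kits the oligosaccharyltransferase median was 0.17 and 0.32, the highest of the 7 steps in each. Relative to all genes it was also highest in 12 of 14 other settings that can move a median, the exceptions being the settings without CD11b-negative replicate 2, where it was 0.12 and the same as the translocon's to 2 decimals, and without CD11b-positive replicate 2, where it was 0.13 and that of SRP and its receptor 0.21. No test was made of the differences between steps, because members of a complex are not replicates.

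**Figure D2:**
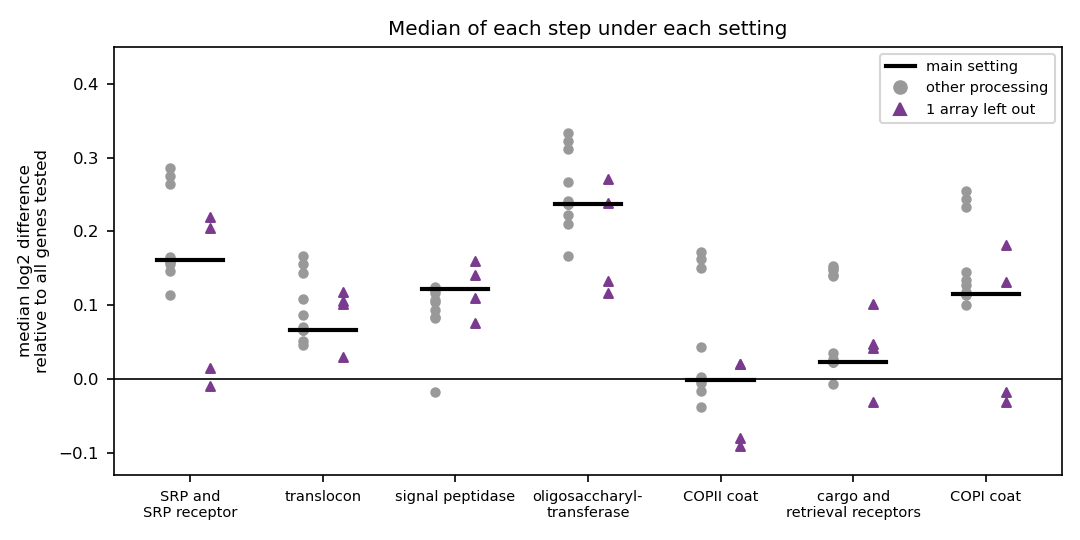
Median log2 difference of each step relative to the median of all genes tested (y axis), with the main setting as a black bar, other processing as grey circles and the 4 settings that leave out 1 array as triangles. Oligosaccharyltransferase has the highest bar, at 0.24, and triangles lie on both sides of 0 for SRP and its receptor, the cargo and retrieval receptors and both coats.

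Among the SRP subunits, SRP9 forms with SRP14 the domain that slows translation while the ribosome is taken to the membrane. Srp9 had signals of 2369 and 2709.6 against 1732 and 2425. The fractions overlap, but the CD11b-positive array was the higher within each kit. Its log2 difference was 0.31 ± 0.20 (SE, n = 2 arrays per fraction), with 0.45 and 0.16 within the kits (SE 0.0923 and adjusted p = 0.0388 with the block), and 0.08 without CD11b-negative replicate 1 and 0.55 without CD11b-negative replicate 2, relative to all genes. A second probe set of Srp9 was at -0.01. Srp14, its partner, was at -0.08. Srp19, an assembly factor of the particle, had 1679.8 and 1733 against 1646 and 1407. These do not overlap, but within the One-Cycle kit the difference was only 0.03. Srp68 and Srp72, which bind together to the RNA core, were at -0.06 and 0.22.

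The SRP receptor has an alpha subunit, encoded by Srpr, and a membrane-anchored beta subunit, encoded by Srprb. Srpr was the only member called lower, with 1933 and 1554 against 2437 and 1847. Its log2 difference was -0.29 ± 0.20 (SE), with -0.33 and -0.25 within the kits (SE 0.0905 and adjusted p = 0.0456 with the block). Leaving out CD11b-negative replicate 1 gave -0.08 and leaving out CD11b-positive replicate 2 gave -0.14. The value was -0.48 and -0.49 without CD11b-positive replicate 1 and CD11b-negative replicate 2, relative to all genes. A second, weak probe set of Srpr was at 0.16. Srprb had 690.1 and 565 against 571 and 506, higher within each kit (0.27 and 0.16, adjusted p = 0.306). Its other probe sets were at 0.23 and -0.05, the latter with 0.25 and -0.34 within the kits.

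At the translocon, Sec61a1 encodes the channel itself and Sec61b a small tail-anchored subunit beside it. Sec61a1 had 2509 and 3435 against 2649.9 and 2955. The sign differed between the kits (-0.08 and 0.22), and the 95% interval of the difference in the blocked fit was -0.12 to 0.25. All 6 of its probe sets were higher, from 0.07 for the one used to 0.28, and 5 were higher within both kits. Sec61b was at 0.13. Sec62 and Sec63, which help chains that enter after synthesis, were at -0.04 and 0.05. Their intervals, again in the blocked fit, were -0.25 to 0.18 and -0.18 to 0.27. All 4 Sec62 probe sets above the filter were lower, down to -0.25. Those of Sec63 disagreed, with 2 higher and 3 lower, from -0.44 to 0.09. Tram1, a membrane protein that aids the entry of some chains, was at -0.13.

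Ssr1 to Ssr4 encode the 4 subunits of the TRAP complex, which sits beside the channel and eases the entry of some signal sequences. Ssr2 had signals of 1031 and 1113 against 799 and 823. Both CD11b-positive arrays lay above both CD11b-negative ones, and the kits gave nearly the same values. Its log2 difference was 0.40 ± 0.16 (SE), with 0.37 and 0.43 within the kits (SE 0.102 and adjusted p = 0.0129 with the block; adjusted p = 0.730 without it). Ssr3 had 2523 and 3125 against 2179 and 2536, overlapping between fractions and higher within each kit (0.21 and 0.30, adjusted p = 0.0714). Ssr1 had 2325 and 2017 against 2003 and 1871, without overlap (0.16, adjusted p = 0.341). Ssr4 went the other way, with 4643 and 5675 against 5802 and 6199, again without overlap (-0.22, adjusted p = 0.0941). All 3 of its probe sets were lower, from -0.22 to -0.10, while all 4 of Ssr1 and both of Ssr3 were higher. Ssr4 was called lower after cyclic loess (adjusted p = 0.0179), the 1 of 11 other settings of the blocked fit in which it was.

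Signal peptidase gave no call. Its catalytic subunit comes in 2 forms, encoded by Sec11a and Sec11c. Sec11c had 6921 and 7548 against 5994 and 7319, and Sec11a had 788 and 912 against 791 and 765. Their log2 differences were 0.13 and 0.12, and which of them differed more depended on the kit (0.21 and 0.04 for Sec11c, -0.0041 and 0.25 for Sec11a). A second probe set of Sec11c was at -0.24. Among the accessory subunits, Spcs3, which is needed for cleavage, had 1999 and 2237 against 1675 and 1929.8, without overlap (0.23, adjusted p = 0.124). Spcs1 had 5702 and 6167 against 6078 and 6279 (-0.06), and Spcs2 was at 0.03. The intervals of the difference in the blocked fit were -0.22 to 0.10 for Spcs1 and -0.14 to 0.20 for Spcs2. They hold for the probe sets used only: the other probe sets of Spcs1 were at 0.14 and 0.22, each higher within both kits.

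Oligosaccharyltransferase held 3 of the 7 members called higher. Rpn1, which encodes ribophorin I, a subunit that presents substrates to the enzyme, had the largest difference of all members. Its signals were 3714 and 3174 against 2580.2 and 2056. Each CD11b-positive array lay above both CD11b-negative ones. The log2 difference was 0.58 ± 0.17 (SE, n = 2 arrays per fraction), or 1.49-fold, with 0.53 and 0.63 within the kits (SE 0.0859 and adjusted p = 3.74e-05 with the block; adjusted p = 0.610 without it). All 5 probe sets of Rpn1 above the low-signal filter were higher within both kits, from 0.28 to 0.72. These share transcript sequence and samples, so they are not independent. On leaving out each array in turn the value ran from 0.41 to 0.74, relative to all genes. By their names all 5 match several transcripts of the gene or may cross-hybridise, so Rpn1 was not tested when such probe sets were left out. The same holds for Rpn2, Ssr2 and Surf4.

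Rpn2, encoding ribophorin II, had 1752 and 1599 against 1329 and 1277, without overlap. Its log2 difference was 0.36 ± 0.15 (SE), with 0.40 and 0.32 within the kits (SE 0.0942 and adjusted p = 0.0147 with the block). Ostc, encoding a small subunit that links the enzyme to the translocon, had 2425 and 2225 against 2158 and 1443. The arrays do not overlap, but most of the difference lay in the 3' IVT Express kit, where the CD11b-negative array was low. Its log2 difference was 0.40 ± 0.21 (SE), with 0.17 and 0.62 within the kits (SE 0.0997 and adjusted p = 0.0113 with the block). Without CD11b-negative replicate 2, that low array, it was 0.11, and without CD11b-negative replicate 1 it was 0.69, relative to all genes.

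The catalytic subunit has 2 forms: STT3A, which works on chains as they pass the channel, and STT3B, which works on sites that were skipped. Stt3a had 3630.1 and 4231 against 2980.3 and 3695, higher within each kit (0.28 and 0.20, adjusted p = 0.0791). Stt3b had 1992 and 1815 against 2099 and 1622, or -0.08 and 0.16 within the kits. The log2 difference of Stt3a thus exceeded that of Stt3b by 0.36 and 0.03, so that the gap lay almost wholly in the One-Cycle kit. It also depended on the probe set used. A second probe set of Stt3b was at 0.21, with 0.18 and 0.25 within the kits, close to the values of Stt3a. The probe sets of Stt3a ran from -0.30 to 1.01, both for weak ones. The other bright one was at 0.21 (0.13 and 0.28 within the kits), close to the one used. Ddost, a core subunit, was at -0.04 and 0.33 within the kits, and Dad1, a small subunit also known as a defender against cell death, at -0.12 and 0.01.

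**Figure D3:**
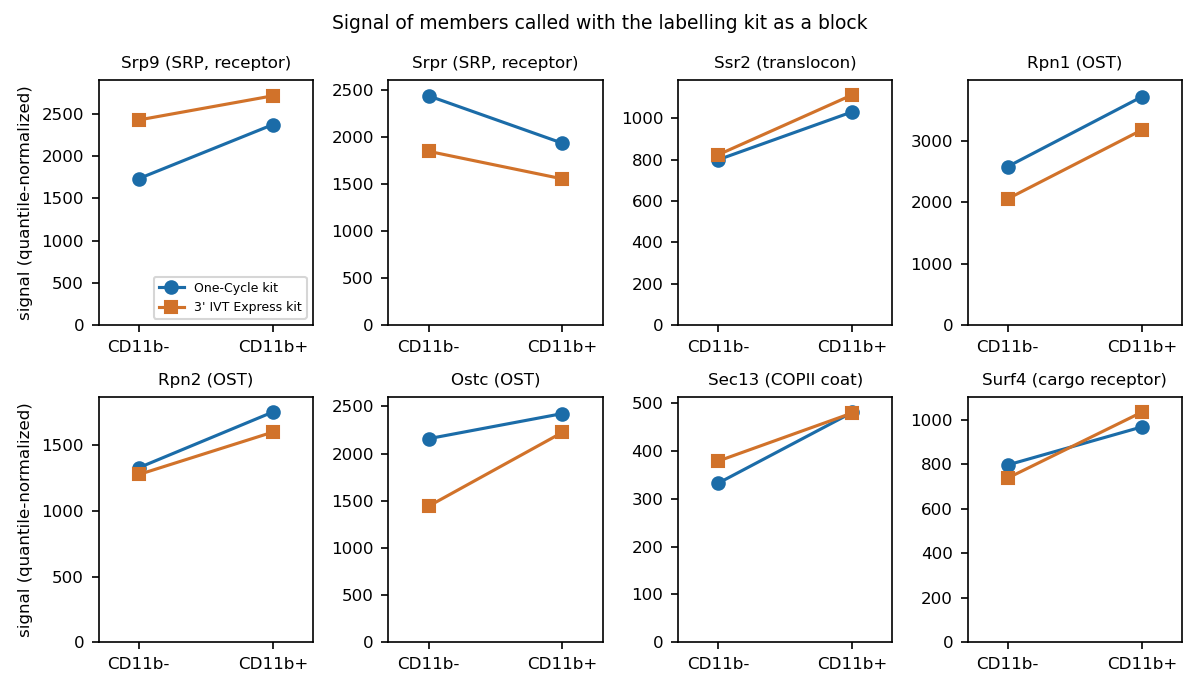
Quantile-normalized signal (y axis, linear, from 0) in the CD11b-negative and CD11b-positive array of each kit for the 8 members called with the kit as a block; each line joins the 2 arrays of a kit. The lines run upward for 7 members and downward for Srpr, and the arrays of the fractions overlap for Srp9 and Srpr.

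The COPII coat forms when the small GTPase SAR1 recruits the inner layer of SEC23 and SEC24 and then the outer cage of SEC13 and SEC31. Of its 9 members, Sec13 was called, with 479.9 and 479 against 332 and 378. The CD11b-positive arrays were nearly equal and lay above both others. The log2 difference was 0.43 ± 0.18 (SE), with 0.53 and 0.34 within the kits (SE 0.124 and adjusted p = 0.030 with the block). SEC13 is also a subunit of the nuclear pore. Its partner Sec31a was at -0.10, and lower within each kit.

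The inner coat and SAR1 genes went both ways. Sec23a had 298 and 381 against 371 and 444, lower within each kit (-0.31 and -0.22, adjusted p = 0.240), while Sec23b, its paralog, had 1051 and 896 against 1036 and 906 (0.02 and -0.02). Among the cargo-binding SEC24 forms, Sec24d had 995 and 1216 against 881 and 1093 (0.17 and 0.15, adjusted p = 0.400), Sec24a was at 0.34 and 0.05 and Sec24c at -0.17 and 0.18. Sar1a had 1243 and 1179 against 1332 and 1351, without overlap (-0.15, adjusted p = 0.445). Sar1b, the paralog linked to the export of large lipoproteins, had 901 and 1312 against 957 and 1270.5 and was at -0.02, with an interval of -0.22 to 0.19.

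Among receptors that carry cargo in COPII vesicles, Surf4, which binds many soluble secreted proteins, was called. It had 969 and 1035 against 798 and 739, without overlap. Its log2 difference was 0.38 ± 0.16 (SE), with 0.28 and 0.48 within the kits (SE 0.105 and adjusted p = 0.0222 with the block). All 5 probe sets were higher, from 0.01 to 0.39, and on averaging its probe sets the value was 0.21 relative to all genes, with no call. Lman1 and Mcfd2 encode the lectin ERGIC-53 and its partner, which export glycoproteins together. Lman1 had 1486 and 1504 against 1401 and 1539, and Mcfd2 had 415 and 299 against 443 and 355. Their log2 differences were 0.03 and -0.17, but 3 of the 4 Lman1 probe sets above the filter were at 0.16 to 0.29.

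The KDEL receptors return ER chaperones that have reached the Golgi. Kdelr1 had 1087 and 1221 against 1357 and 1213, and Kdelr2 had 731 and 1010.0 against 708 and 839. Within the kits Kdelr1 was at -0.32 and 0.01 and Kdelr2 at 0.05 and 0.27. Kdelr1 lay below Kdelr2 in this difference by 0.37 and 0.26, the widest gap of the 5 paralog pairs over both kits, although neither gene was called (adjusted p = 0.449 and 0.474). Tmed10, a p24 family receptor, was at -0.23 and 0.22.

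COPI is built from coatomer, of which 4 subunits were on the list. Copa had 2086 and 1923 against 2041 and 1728. Copb1 had 693 and 724 against 635 and 648, without overlap, and Copb2 had 905 and 626 against 779 and 541. Cope had 1677 and 1682 against 1786 and 1623. The first 3 were higher within both kits, by 0.03 to 0.21, and Cope was at -0.09 and 0.05. None was called (adjusted p = 0.289 to 0.949). For Copb2, the kits differed more than the fractions, and a second probe set was at 0.54.

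**Figure D4:**
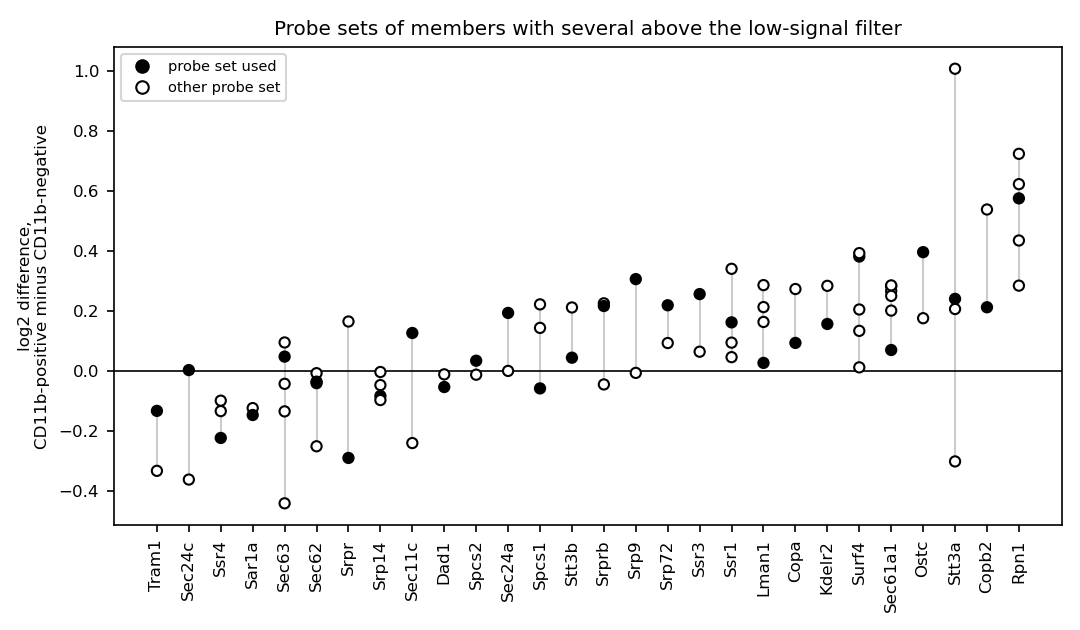
Log2 difference (y axis, CD11b-positive minus CD11b-negative, n = 2 arrays per fraction) of every probe set above the low-signal filter for the 28 members with several; filled circles are the probe set used. All probe sets of a gene had 1 sign for 18 of the 28, 12 higher and 6 lower, and the highest point is a weak probe set of Stt3a, at 1.01.

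Promoter letters were searched for elements known from the unfolded protein response, because XBP1 is known to act on genes of this pathway. RefSeq promoters on GRCm38.p6, with 250 bases before and 50 after an annotated start, were held for 38 of the 49 genes (41 promoters). On either strand, the letters TGACGTGG, the unfolded protein response element (UPRE), stood in 4 of these 41 (9.76%), against 0.676% of all 32851 promoters and 1.11% of the 12984 promoters of genes tested. All 4 belong to vesicle coat genes: Sec23a and Sec24d of COPII and Copb1 and Copb2 of COPI. The 5-letter core ACGTG, which lies within the UPRE, stood in 53.7% of the member promoters, against 19.6% of all and 24.9% of those of genes tested. The CRE, TGACGTCA, was found in 1 (2.44%, against 1.79% of all and 2.93% of those of genes tested). The short parts CCAAT and CCACG of the ER stress element stood in 43.9% and 63.4% (37.4% and 32.8% of all, 37.3% and 45.2% of those of genes tested), and the full elements ERSE and ERSE-II in 0 (0.119% and 0.0365% of all). These windows are short, and a match is a description of letters only. They are shown for the 4 coat genes with the element and, for comparison, for the called genes Rpn1 and Rpn2. Each runs from 100 bases before to 14 after the start, on the gene's strand, with the UPRE letters of either strand in capitals. Another Rpn2 promoter, with its start at base 157279426, had 0 UPRE matches in this window and is not printed.
Copb1, chr7:114254667-114254780, minus strand: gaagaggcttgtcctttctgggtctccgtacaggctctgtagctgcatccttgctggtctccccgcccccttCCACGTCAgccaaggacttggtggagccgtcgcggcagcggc
Copb2, chr9:98563631-98563744, plus strand: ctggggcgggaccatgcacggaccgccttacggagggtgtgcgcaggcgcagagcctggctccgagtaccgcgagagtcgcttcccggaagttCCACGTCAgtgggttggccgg
Sec24d, chr3:123267396-123267509, plus strand: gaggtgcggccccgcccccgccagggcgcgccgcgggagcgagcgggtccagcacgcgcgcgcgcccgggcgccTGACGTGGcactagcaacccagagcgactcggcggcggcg
Sec23a, chr12:59012004-59012117, minus strand: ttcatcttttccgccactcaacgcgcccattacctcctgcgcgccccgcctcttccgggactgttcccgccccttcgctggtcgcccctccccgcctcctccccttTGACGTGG
Rpn1, chr6:88084373-88084486, plus strand: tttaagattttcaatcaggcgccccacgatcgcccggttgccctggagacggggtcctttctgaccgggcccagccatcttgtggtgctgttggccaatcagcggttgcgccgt
Rpn2, chr2:157278998-157279111, plus strand: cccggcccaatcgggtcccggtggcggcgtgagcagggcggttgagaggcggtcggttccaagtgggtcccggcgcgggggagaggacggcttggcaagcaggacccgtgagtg

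In 3 of the 4 coat genes the element begins 7 to 28 bases before the annotated start, and in Sec23a it begins at base 7 of the transcript. For Sec24d the annotated start is not the first base of the RefSeq gene. The 4 genes differed in sign: Copb1, Copb2 and Sec24d were at 0.14, 0.21 and 0.16, and Sec23a at -0.27, and none was called. Xbp1 itself had signals of 8435 and 9000.1 against 8830.1 and 9033, a log2 difference of -0.04.

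Other genes of the pathway were listed by function. Of 89 listed, 82 were found and 80 tested, and their median log2 difference was 0.0018, with 40 above and 40 below 0. With the block 3 were called higher and 3 lower (3.75% each), close to the 3.73% and 4.14% of all genes. Magt1, an oxidoreductase subunit of the STT3B form of oligosaccharyltransferase, had 1268 and 1380.1 against 1035 and 1081 (0.32, adjusted p = 0.0398), and the other 4 genes of that step were not called. Tmed9, a p24 receptor, had 1519 and 1338 against 1279 and 961 (0.36, adjusted p = 0.0212), while Tmed3, of the same family, had 448 and 393 against 613 and 519 (-0.42, adjusted p = 0.0236). Both changed without overlap, in opposite directions.

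Copz2, a coatomer zeta subunit, had 58.4 and 39.1 against 102 and 91.6 (-0.97, adjusted p = 0.00961). Of the 19 epithelial markers tested, 16 were also called lower, and their part in this was not tested. Trappc2l, a subunit of the TRAPP tethering complex, had 915 and 851 against 1156 and 1068 (-0.33, adjusted p = 0.0401). Bnip1, a SNARE of COPI transport also known as Sec20, had 64.1 and 86.1 against 15.4 and 77.4, so that 1 CD11b-negative array was low. It was called (1.01, adjusted p = 0.0486), but within the 3' IVT Express kit it was at 0.15.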

How the data were processed

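The authors deposited linear intensity values, a MAS5 signal for each probe set; per the submitters' processing notes Expression Console was used, with settings not given in the sources used here. Members and lists were chosen with earlier results of these data known. Of 45101 probe sets, 64 controls were left out; 34945 name 1 gene. Because array trimmed means differed (48.6 to 90.3), signals were quantile-normalized, and log2(signal + 3) was taken. Probe sets above the 40th percentile of mean log2 signal (about 9.51) were kept, with the brightest per gene, giving 12645 genes, tested with limma 3.58.1 (R 4.3.3; eBayes with a trend, 2-sided, Benjamini-Hochberg over all genes), without a block. The alternative, which adds the kit as a replicate block, rests on 1 residual and 25.6 prior degrees of freedom; arrays of a kit deviated together (r = 0.387 across genes). With 2 arrays a fraction, an exact permutation test has a smallest p of 0.333, so none was made. The fits were also run on simulated data with independent noise, only to check that planted differences came back with little mean error. That run has no bearing on how reliable the calls are. By rule, all 4 arrays' signals are given for each step's brightest member and up to 4 members with the smallest p without the block, for called members and for up to 4 called other genes per direction, and paralog pairs stand side by side. Others named with 4 signals (Sec61a1, Stt3b, Sec23b, Sar1b, Tmed2) were added after their values were seen. The number of arrays limits the precision.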

Additional observations from a re-analysis of the deposited data

How the results depend on the processing

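With limma and no block, 0 members were called in every setting, and the count of all genes was 0 apart from 996 with the replicate block and 0 to 24 on leaving out each array in turn (24 without CD11b-positive replicate 1 and 1 without CD11b-positive replicate 2). Those fits have 1 array in a fraction, which is assumed to vary like the other fraction's 2. The replicate block, the labelling kit, gave 8 members and 6 other pathway genes. The blocked fits under other settings were chosen after seeing the data: 8 members became 5 with a pseudocount of 1, 38 on the deposited scale, 31 after centring, 5 without the low-signal filter, 4 on averaging probe sets, 0 without cross-hybridising probe sets (38 members tested) and 0 without the trend. Of all genes, 996 became 697 (pseudocount 1), 3809 (deposited), 1937 (centring), 683 (no low-signal filter), 746 (averaged probe sets), 437 (no cross-hybridising probe sets) and 0 (no trend). Without cross-hybridising probe sets, a setting that also drops those matching several transcripts of a gene, another probe set stood in. Srp9 then turned to -0.015 and Srpr to 0.16, relative to all genes.

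Medians, relative to all genes, moved beyond the spread between kits mainly with scaling. On the deposited scale they were 0.29 (SRP and receptor), 0.17 (translocon), 0.33 (oligosaccharyltransferase), 0.17 (COPII) and 0.25 (COPI). After centring they were 0.28, 0.16, 0.16 and 0.24, and with a trimmed mean 0.26, 0.14, 0.15 and 0.23, for SRP, translocon, COPII and COPI. The translocon was at 0.046 after cyclic loess, 0.052 with the stricter filter, 0.11 with all probe sets and 0.086 without cross-hybridising ones, and signal peptidase at -0.018 after cyclic loess; these causes were not tested. Leaving out each array gave -0.0092 to 0.22 (SRP), 0.030 to 0.12 (translocon), 0.08 to 0.16 (signal peptidase), 0.12 to 0.27 (oligosaccharyltransferase), -0.090 to 0.021 (COPII), -0.031 to 0.10 (receptors), -0.031 to 0.18 (COPI) and 0.04 to 0.14 (all members).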
